A study of Rattus norvegicus with 12 samples.

Results

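Livers of rats given the flavonoid didymin on a high-fat diet were compared with livers of normal rats by RNA sequencing, with 3 libraries of didymin arm D set against 3 normal libraries. These are 6 of the 12 liver libraries of the study, the others being 3 of the high-fat diet model and 3 of a second didymin arm. All animals were Sprague Dawley rats, an outbred laboratory stock, and the labels say that a random division made the groups. Arm D was fed the high-fat diet, kept for 8 weeks to induce fatty liver, and was treated with didymin, a flavonoid glycoside found in citrus fruit. The normal group, labelled wt, was given saline. The count tables letter the didymin arms D and G, the labels speak of a low and a high dose, and neither pairs a letter with a dose, so the dose of arm D is not stated here. Arm D differs from normal in diet and in didymin at once, and the part of each in a difference cannot be told apart. The libraries are called by their column names, D.1, D.4 and D.7 for arm D and N.1, N.2 and N.3 for normal. No label ties a library to a separate animal, so p-values measure only the spread between these libraries, which may be technical.

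The liver makes cholesterol from acetyl-CoA through mevalonate and squalene. The enzymes of that route are switched on together by the transcription factor SREBP2 when sterols in the endoplasmic reticulum are scarce and are switched off when cholesterol arrives in excess, with INSIG proteins holding the SREBP precursor in place. Fatty acid synthesis is driven by the related factor SREBP1c and by insulin, and bile acid synthesis through Cyp7a1 and biliary export through Abcg5 and Abcg8 are the main routes by which the liver disposes of cholesterol. Fatty liver disease adds inflammation to this, in which Kupffer cells, the resident macrophages, and recruited lymphocytes take part.

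Total counts ran from 13846295 to 15205176 per library over the 6 libraries. Detected genes, with 1 count or more, numbered 14174 to 14591. The mitochondrial share was taken over the 13 genes named with the prefix Mt-. Of the protein genes of the mitochondrial genome 12 were found by name, and Mt-co3 was not. The 13 genes took 16.02%, 5.62% and 5.88% of the counts in D.1, D.4 and D.7, against 4.63%, 3.85% and 11.2% in N.1, N.2 and N.3. The group means of 9.18 ± 5.93% in arm D and 6.54 ± 4.01% in normal (SD, n = 3 each) differed by 2.63 percentage points, with a two-sided exact permutation p of 0.5, where 3 against 3 libraries can give no p below 0.1. Without D.1 the difference was −0.790 percentage points. D.1 and N.3, the libraries of highest share in each group, had the lowest values on the first principal component of log2 CPM (scaled counts), at −55.5 and −29.6. This component held 46.8% of the variance. On it D.4 and D.7 lay at −3.06 and 1.07, and N.1 and N.2 lay highest, at 49.5 and 37.6. N.3 was about as far from D.4 as from D.1. The second component, with 25.4% of the variance, divided D.4 and D.7 at −41.1 and −31.5 from all other libraries at 9.83 to 30.6. For this reason lists and leading genes are also given as the difference D.1 minus N.3, the libraries of high share, and as the difference of the means of D.4 and D.7 minus N.1 and N.2, the libraries of low share.

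Among 11908 genes tested, 1 rose and 1 fell in arm D in edgeR's quasi-likelihood test at an adjusted p under 0.05, which is 0.0084% of the genes in each direction. The gene that fell was Apof, apolipoprotein F, a secreted liver protein carried on lipoproteins that in human plasma is known as the lipid transfer inhibitor protein. Its level was 26.6, 24.6 and 29.2 CPM (the count per library, scaled to a common library size) in D.1, D.4 and D.7, against 205, 221 and 205 CPM in N.1, N.2 and N.3. The groups were far apart and each was tight, and the log2 fold change was −2.97 ± 0.17 (SE, edgeR's quasi-likelihood test, adjusted p = 0.00140), which is 0.128 times the normal level. D.1 minus N.3 gave −2.94 and the low-share libraries −2.98. In a bulk sample fewer cells of a type and less RNA per cell cannot be told apart. The gene that rose was Lrtm2, which encodes a membrane protein with leucine-rich repeats. Its level was 59.4, 59.3 and 56.2 CPM in arm D, against 17.1, 13.0 and 14.6 CPM in normal. The groups did not overlap, and the log2 fold change was 1.97 ± 0.17 (edgeR's quasi-likelihood test, adjusted p = 0.0185), 3.91 times the normal level. Neither gene was as even in the other high-fat libraries. Apof was at 34.3, 218 and 58.9 CPM and Lrtm2 at 39.2, 14.5 and 91.1 CPM in M.5, M.6 and M2.1 of the high-fat diet model. In the other didymin arm, G.1, G.3 and G.4 had 255, 65.7 and 24.6 CPM of Apof and 60.1, 19.2 and 21.9 CPM of Lrtm2. Within each of those groups some libraries lay near arm D and others near normal. When all 12 libraries entered 1 fit, whose common biological coefficient of variation was 0.408 against 0.294 for the 6, both genes missed the threshold (adjusted p of 0.401 for Apof and 0.460 for Lrtm2). Lrtm2 also missed it without D.4 (0.187), D.7 (0.108), N.2 (0.254) or N.3 (0.0598), and Apof passed without each of the 6 libraries in turn. The number of genes past the threshold differed widely with the libraries and the tool. Without D.1 it was 47 higher and 7 lower, without N.1 it was 3 higher and without N.3 it was 2 lower. Without both D.1 and N.3, which leaves 2 libraries a group, 522 of 12011 genes were higher, 4.35%, and 385 lower, 3.21%, and in DESeq2 on all 6 libraries 216 were higher and 131 lower.

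The promoters of Apof and of Insig1, the gene with the next smallest p among those lower in arm D, are shown. Both were chosen because their windows hold an E-box, the letters CACGTG, written in capitals, so the shared E-box is a result of that choice. The windows run 5′ to 3′ from 250 bases before to 50 bases after the gene start in RefSeq's GRCr8 assembly. That of Apof is chr7:1284972-1285271 on the plus strand, with the E-box starting 233 bases before the start, and that of Insig1 is chr4:8057720-8058019 on the minus strand, with the E-box 79 bases before it.
Apof: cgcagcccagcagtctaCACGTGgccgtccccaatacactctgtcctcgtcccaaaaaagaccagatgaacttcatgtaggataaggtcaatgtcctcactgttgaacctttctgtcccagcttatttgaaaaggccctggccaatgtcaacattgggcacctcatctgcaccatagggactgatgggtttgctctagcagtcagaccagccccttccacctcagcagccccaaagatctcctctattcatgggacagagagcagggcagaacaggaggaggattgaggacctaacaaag
Insig1: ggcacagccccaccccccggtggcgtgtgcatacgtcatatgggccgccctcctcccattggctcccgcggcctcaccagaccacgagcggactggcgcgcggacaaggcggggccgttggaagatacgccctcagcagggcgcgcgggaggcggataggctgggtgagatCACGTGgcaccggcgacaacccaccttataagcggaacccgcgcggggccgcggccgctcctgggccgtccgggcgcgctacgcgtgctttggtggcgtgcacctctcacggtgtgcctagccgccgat
The E-box was found on either strand in 2148 of 33469 rat promoter windows, 6.42%, and in 4 of the 26 genes of the cholesterol synthesis, regulation and uptake lists for which a window was given. It was absent from the windows of Lrtm2, Dbp and Dhcr7, which are also among the genes of smallest p. One written form of the sterol response element, TCACNCCAC, was in 374 windows, 1.12%, and in 0 of those 26 genes. A match of letters is not a binding site, and these letters being absent from a window of 300 bases says nothing about the factor.

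Below the 2 genes that passed, the leading genes were separated by group without reaching the threshold. Without adjustment, p was under 0.05 for 831 genes higher in arm D, 6.98% of those tested, and for 571 lower ones, 4.8%. The 3 arm D libraries all lay above the 3 normal libraries in 1061 genes, 8.91%, and all below in 902, 7.57%. The count of higher genes was 512 without D.4 and 512 without N.2, and that of lower genes was 360 without N.1, 323 without N.2 and 1324 without N.3. Insig1, which retains the SREBP precursors, was at 64.6, 54.5 and 60.7 CPM in arm D, against 342, 411 and 195 CPM in normal. Cish, a STAT5 target that damps cytokine and growth hormone signalling, was at 8.36, 4.48 and 10.3 CPM, against 56.8, 73.6 and 40.2 CPM. Abcg8, a subunit of the sterol exporter into bile, was at 1.20, 1.47 and 1.24 CPM, against 5.17, 7.16 and 7.15 CPM. In each of these the highest arm D library lay well under the lowest normal one, with log2 fold changes of −2.40 ± 0.29, −2.88 ± 0.35 and −2.30 ± 0.29 and, from edgeR's quasi-likelihood test, adjusted p-values of 0.083. The other genes in this set of 8 were Dhcr7, the last enzyme of cholesterol synthesis (−1.43 ± 0.19), Ccdc126 (−1.32 ± 0.19), Tsc22d3, a glucocorticoid-induced leucine zipper protein (−1.46 ± 0.21), and Slc6a13, a transporter of GABA and taurine (−1.05 ± 0.16), with adjusted p up to 0.0943.

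On the higher side, Tspo, a cholesterol-binding protein of the outer mitochondrial membrane, was at 15.2, 13.3 and 14.4 CPM in arm D, against 2.94, 4.51 and 4.36 CPM in normal. Dbp, a transcription factor at the output of the circadian clock, was at 8.64, 15.6 and 15.9 CPM, against 2.81, 2.23 and 3.16 CPM. The log2 fold changes were 1.86 ± 0.24 for Tspo and 2.29 ± 0.31 for Dbp, and neither pair of groups overlapped. Tuba3b, an alpha tubulin, had 2.76 ± 0.31, Tex13b, a testis-expressed gene, 3.14 ± 0.38, and Tmem150c, a membrane protein, 1.42 ± 0.20. The other 2 were the loci AABR07060872.1 at 2.56 ± 0.35, and AABR07051652.1, which had 24, 25 and 18 counts in arm D and 1 count in each normal library, so its size is poorly known. Adjusted p ran from 0.083 to 0.0885 over these 7 genes.

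**Figure D1:**
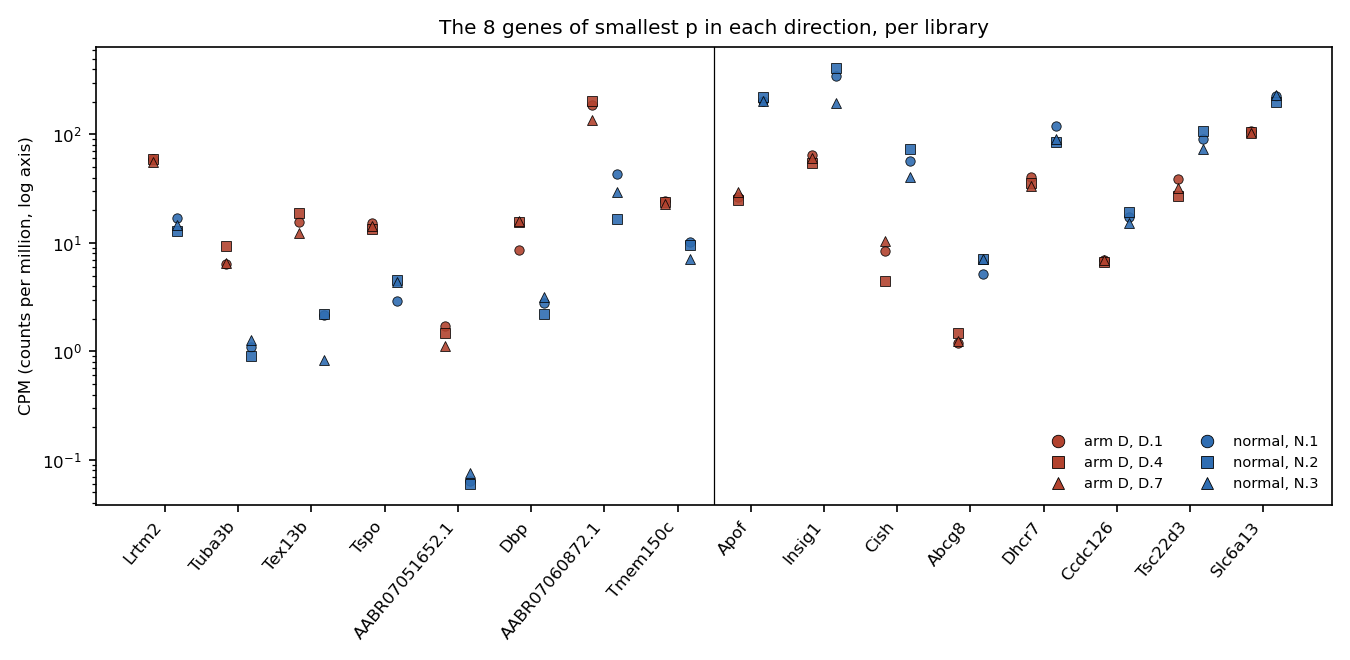
Level of the 8 genes of smallest p that were higher (left of the line) and the 8 that were lower (right of it) in arm D, in CPM on a log axis, with a point for each library of arm D (red) and normal (blue). The groups do not overlap in any of the 16 genes, and only Lrtm2 and Apof passed the adjusted threshold.

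Genes of cholesterol synthesis were lower in arm D, by amounts that differed along the route. All 10 genes of the list from acetyl-CoA to squalene, which includes Ggps1 of a side branch, had negative log2 fold changes. They ran from −2.85 to −0.23, with a median of −1.37. All 12 from squalene to cholesterol were negative too, from −2.69 to −0.07, with a median of −1.44. The median over all genes tested was −0.00, with 5946 positive and 5962 negative. In edgeR 0 of the 22 passed. DESeq2 put 6 of 10 and 8 of 12 past its threshold, all lower, where it called 129 of the 11908 genes tested in edgeR lower. At an unadjusted p under 0.05, 7 of 10 and 11 of 12 were lower, where 4.8% of all genes were, and in 8 of 10 and 10 of 12 all arm D libraries lay below all normal ones, where 7.57% of all genes did. The medians were −0.88 and −1.12 for D.1 minus N.3, and −1.52 and −1.64 for the low-share libraries. Without D.1 and N.3, 6 of 10 and 8 of 12 fell with an adjusted p under 0.05 in edgeR, where 3.21% of all genes did.

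Among the early enzymes, Hmgcs1, which makes HMG-CoA, was at 238, 133 and 102 CPM in arm D, against 783, 550 and 500 CPM in normal, a log2 fold change of −1.96 ± 0.35. Idi1, the isomerase of the isoprenoid units, was at 6.94, 8.37 and 3.34 CPM, against 68.0, 47.5 and 19.4 CPM, and had −2.85 ± 0.51. Fdps, which makes farnesyl diphosphate, had −1.63 ± 0.29, and Fdft1, which joins 2 of these into squalene, had −1.02 ± 0.24, both with no overlap. In the later steps Sqle, which oxidises squalene, was at 6.80, 7.60 and 3.09 CPM in arm D, against 60.8, 31.6 and 19.1 CPM in normal, a log2 fold change of −2.67 ± 0.49. Cyp51, the lanosterol demethylase, was at 38.8, 72.1 and 25.6 CPM, against 356, 218 and 131 CPM, and had −2.37 ± 0.47. Msmo1, a sterol methyl oxidase, had −2.20 ± 0.40 and Tm7sf2, a sterol reductase, −2.27 ± 0.52. In each of these 4 later genes N.3 was the lowest normal library and still lay above all of arm D. Adjusted p in edgeR was 0.150 to 0.196 over the 8 genes of this paragraph.

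Regulators of the route were lower in part. Of 12 genes for SREBP regulation and LDL uptake, 8 were negative and 4 positive, and the median log2 fold change was −0.64, which was −0.42 without N.1. At an unadjusted p under 0.05, 6 were lower and 2 higher, where 4.8% and 6.98% of all genes were. Stard4, a carrier of cholesterol between membranes, had −1.49 ± 0.28, and Srebf2, which encodes SREBP2, had −0.87 ± 0.26, both with no overlap. Srebf1, the gene of the fatty acid regulator, differed in sign, at 91.9, 103 and 156 CPM in arm D, against 102, 34.2 and 35.7 CPM in normal (1.03 ± 0.44), with N.1 inside the range of arm D.

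**Figure D2:**
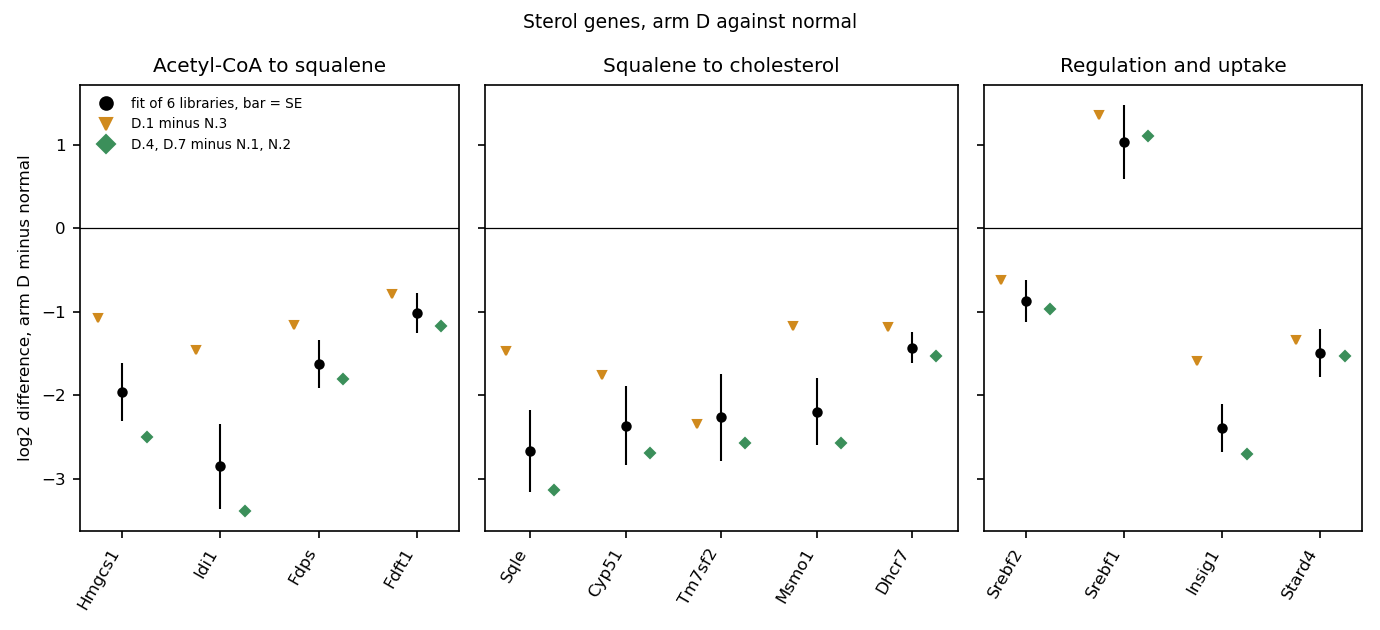
Log2 difference of arm D minus normal for the genes named in the text among the enzymes from acetyl-CoA to squalene, the enzymes from squalene to cholesterol, and the genes of sterol regulation and uptake, as fitted on 6 libraries (black, bars are SE), for D.1 minus N.3 (orange) and for D.4 and D.7 minus N.1 and N.2 (green). The fitted value lies below 0 in every enzyme drawn, and Srebf1 stands above 0 at 1.03.

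Sterol export and bile acid genes went different ways. Of 24 genes of bile acid synthesis, conjugation and transport, 11 were positive and 13 negative, and the median log2 fold change was −0.07. Cyp7a1, which sets the rate of bile acid synthesis, was at 164, 171 and 64.9 CPM in arm D, against 42.7, 25.5 and 25.5 CPM in normal. All arm D libraries were above all normal ones, and the log2 fold change was 2.09 ± 0.40 (edgeR's quasi-likelihood test, adjusted p = 0.155). Abcb11, the bile salt export pump, was lower, at −0.92 ± 0.20, and so was Abcg5, the partner of Abcg8, at 11.97, 10.3 and 11.3 CPM, against 18.1, 20.0 and 28.9 CPM (−0.995 ± 0.22). The members with no overlap were 3 higher and 4 lower of 24, where 8.91% and 7.57% of all genes were, so these counts stand near the background.

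Fatty acid synthesis was divided. Of 17 genes tested, 13 had a log2 fold change below 0, and the median was −0.80, which was −0.45 without D.1, −0.52 without N.1 and −0.50 without N.2. At an unadjusted p under 0.05, 6 were lower and 2 higher, against 4.8% and 6.98% of all genes. Scd, the stearoyl-CoA desaturase that makes monounsaturated fatty acids, was at 429, 259 and 531 CPM in arm D, against 76.7, 125 and 89.4 CPM in normal. The lowest arm D library lay above the highest normal one, and the log2 fold change was 2.07 ± 0.31 (edgeR's quasi-likelihood test, adjusted p = 0.0943). Fasn, the fatty acid synthase, was at 14.9, 23.8 and 18.3 CPM, against 58.3, 53.5 and 23.7 CPM (−1.25 ± 0.35), with D.4 just above N.3. Acly, which supplies acetyl-CoA for synthesis, had −1.39 ± 0.42, and Fads1, the delta-5 desaturase, was at 57.6, 120.2 and 35.5 CPM, against 319, 269 and 120.3 CPM, with D.4 and N.3 nearly level (−1.73 ± 0.50). Mlxipl, the gene of the glucose-responsive factor ChREBP, had −0.43 ± 0.19. The list median was −0.19 for D.1 minus N.3 and −0.83 for the low-share libraries. Among 20 triglyceride and lipid droplet genes the median was −0.29, and −0.18 without N.2. G0s2, an inhibitor of triglyceride breakdown, was higher at 1.04 ± 0.25, and Fitm2, which helps droplets form (−0.77 ± 0.18), Lpin1, a phosphatidate phosphatase (−1.67 ± 0.53, overlapping), and Agpat2, an acyltransferase (−0.54 ± 0.20), were lower.

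Genes of fatty acid oxidation and targets of PPAR-alpha, the fatty acid sensor of the fasting liver, were lower by a smaller amount. Of 29 tested, 26 were negative, and their log2 fold changes had a median of −0.45. At an unadjusted p under 0.05, 8 were lower and 0 higher, where 4.8% of all genes were lower, and 10 lay below with no overlap, where 7.57% of all genes did. Cpt2, which completes the import of fatty acids into mitochondria, was at 132, 90.5 and 110.4 CPM in arm D, against 182, 191 and 181 CPM in normal (−0.73 ± 0.18). Cyp4a1, an omega-hydroxylase and PPAR-alpha target, was at 258, 178 and 313 CPM, against 399, 612 and 549 CPM (−1.06 ± 0.26). The groups did not overlap in either, and Acot2, a mitochondrial thioesterase (−1.21 ± 0.37), and Creb3l3, a regulator of fasting lipid use (−0.57 ± 0.18), were lower in the same way. Cpt1a, the rate-limiting importer, overlapped at 244, 435 and 327 CPM, against 776, 761 and 356 CPM (−0.91 ± 0.34), as did Ppara itself (−0.82 ± 0.50). The median was −0.39 in the high-share and −0.37 in the low-share libraries. Lipoprotein genes as a list differed little, with a median of −0.18 over 19 genes, which was −0.072 without D.4 and −0.014 without N.3. Mttp, which loads lipid onto apolipoprotein B, was at 159, 159 and 149.7 CPM, against 225, 237 and 211 CPM (−0.53 ± 0.15), and Tm6sf2, which also serves lipoprotein lipidation, had −0.51 ± 0.17.

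Most tested genes of a list that joins the growth hormone and prolactin axis with sex-biased liver genes were lower in arm D. Of 14 genes tested, 12 had a log2 fold change below 0, and the median was −0.35, and 7 lay below with no overlap and 1 above, where 7.57% and 8.91% of all genes did. Prlr, the prolactin receptor, had 1, 2 and 16 counts in arm D, against 180, 785 and 205 counts in normal, or 0.0708, 0.118 and 0.988 CPM, against 11.5, 47.2 and 15.4 CPM. The groups were far apart, but the fitted log2 fold change of −5.92 ± 0.90 (edgeR's quasi-likelihood test, adjusted p = 0.0943) rests on 19 counts over the 3 arm D libraries and depends on the prior count. Socs2, a feedback inhibitor of growth hormone signalling like Cish, was at 32.5, 25.8 and 51.9 CPM, against 88.8, 137 and 155 CPM (−1.79 ± 0.32). Srd5a1, a steroid 5-alpha reductase, was at 53.0, 81.7 and 70.1 CPM, against 147, 171 and 123 CPM (−1.11 ± 0.22). Both had no overlap, and adjusted p was 0.150 and 0.157. Cyp2c12, a female-biased steroid hydroxylase in rats, and Cyp2c11, a male-specific one, were chosen after their values were seen and had −1.53 ± 0.39 and 0.52 ± 0.31, with no overlap in Cyp2c12. Both have near-identical relatives that can share their reads, so their values are uncertain. The Y-linked genes Eif2s3y and Kdm5d, checked after values were seen, were counted in all 6 libraries at 27.2 to 38.5 CPM and 8.95 to 14.8 CPM, so neither group held a library without them.

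Glucose and insulin genes were lower in part. Of 21 tested, 17 were negative, and their log2 fold changes had a median of −0.33, which was −0.64 without D.7. At an unadjusted p under 0.05, 5 were lower, where 4.8% of all genes were, and 0 higher. Irs2, the insulin receptor substrate that carries insulin signals in hepatocytes, was at 28.8, 18.0 and 20.5 CPM in arm D, against 59.7, 98.8 and 39.4 CPM in normal (−1.56 ± 0.35). Insr, the insulin receptor, had −0.78 ± 0.20, and Pc, pyruvate carboxylase, the first enzyme of gluconeogenesis from pyruvate, was at 334, 322 and 391 CPM, against 610.2, 558 and 557 CPM (−0.72 ± 0.17). These 3 had no overlap. Igfbp1, an insulin-repressed secreted protein, overlapped (−0.99 ± 0.34), as did Pck1, the gluconeogenic carboxykinase, at 2119, 2914 and 2732 CPM, against 4639, 5105 and 2726 CPM (−0.68 ± 0.29).

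Clock genes stood on both sides. Of 17 tested, 7 were positive and 10 negative in log2 fold change, and 3 lay above and 5 below with no overlap, where 8.91% and 7.57% of all genes did. Beside Dbp, Nr1d1, a repressor in the core clock loop, was at 33.2, 39.0 and 44.5 CPM in arm D, against 22.3, 18.9 and 7.22 CPM in normal (1.27 ± 0.38). Per2, another repressor of the loop, was at 5.24, 3.42 and 7.72 CPM, against 2.55, 2.04 and 1.96 CPM (1.32 ± 0.36). Both were higher in every arm D library, while Noct, a rhythmic gene of the deadenylase family (−1.32 ± 0.37), and Rora, an activator in the loop (−1.14 ± 0.33), were lower in every one. The time of day of sampling is not given in the sources used here, and its part in these values was not tested. Immediate early genes, which respond to stimuli within minutes, were higher in 18 of 22, with a median of 0.66, which was 0.36 without D.1, and 10 were higher at an unadjusted p under 0.05, where 6.98% of all genes were. Junb, a subunit of AP-1, was at 228, 144 and 177 CPM, against 107, 75.8 and 85.8 CPM (1.03 ± 0.23). Fos, another subunit, was at 105, 24.4 and 40.3 CPM, against 24.4, 17.4 and 22.6 CPM (1.39 ± 0.49), and was led by D.1. The list median was 1.10 for D.1 minus N.3 and 0.35 in the low-share libraries, and Ier3, an early response gene, had 0.67 ± 0.22 while Myc was lower, at −1.14 ± 0.32.

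Markers of Kupffer cells, inflammation and the interferon response had medians above 0 in arm D, led by D.4 and D.7. Kupffer cell markers were positive in 17 of 18, with a median log2 fold change of 0.78, which was 0.03 for D.1 minus N.3 and 0.96 for the low-share libraries. Toll-like receptor, NF-kB and cytokine genes were positive in 23 of 30, with a median of 0.62, which was 0.03 and 0.96 in the same pairs. Interferon-stimulated genes were positive in 26 of 29, with a median of 0.40, which was −0.22 and 0.59. The Kupffer median was 0.27 without D.4, the inflammatory one 0.93 without D.1, and the interferon one 0.22 without D.4 and 0.24 without D.7. D.1, the arm D library of highest mitochondrial share, thus lay near normal in all 3 lists. Without D.1 and N.3, 8 of 18, 11 of 30 and 8 of 29 rose with an adjusted p under 0.05 in edgeR and 0 fell, where 4.35% of all genes rose. With all 6 libraries 0 passed in edgeR. DESeq2 called 1 of 18, 7 of 30 and 2 of 29 higher, where it called 211 of the 11908 genes tested in edgeR higher. In the 6 libraries 4 of 18, 13 of 30 and 6 of 29 were higher at an unadjusted p under 0.05, where 6.98% of all genes were.

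Of the macrophage genes, Lyz2, lysozyme, was at 95.3, 149.6 and 134 CPM in arm D, against 33.3, 62.7 and 74.0 CPM in normal (1.16 ± 0.31), with no overlap. Cd68, a lysosomal marker, was at 31.7, 62.4 and 56.2 CPM, against 28.5, 23.3 and 31.5 CPM (0.85 ± 0.27), where D.1 lay just above the highest normal library. Csf1r, through which macrophages receive colony-stimulating factor 1, was at 51.2, 160.1 and 127 CPM, against 78.1, 59.7 and 49.0 CPM (0.86 ± 0.39). Adgre1, the F4/80 antigen (1.32 ± 0.45), and C1qc, a complement component made by macrophages (0.80 ± 0.32), overlapped likewise through D.1. Among inflammatory genes Il1b, the cytokine interleukin-1 beta, was higher in all arm D libraries, D.1 included, at 19.6, 18.2 and 19.1 CPM, against 9.38, 8.60 and 8.88 CPM (1.08 ± 0.17, edgeR's quasi-likelihood test, adjusted p = 0.0943). Vcam1, an adhesion molecule for leukocytes, was at 13.0, 18.3 and 21.9 CPM, against 7.15, 8.54 and 9.18 CPM (1.10 ± 0.24). Both had no overlap, as had Ccl2, the monocyte chemokine, at low levels (2.15 ± 0.48), and Cxcl9, an interferon-induced chemokine (1.52 ± 0.36). Psmb9, an immunoproteasome subunit, was at 41.5, 59.1 and 84.2 CPM, against 26.2, 30.4 and 28.1 CPM (1.13 ± 0.26). Tap1, the peptide transporter of antigen presentation, had 0.94 ± 0.28, and Gbp2, a guanylate-binding protein, had 1.998 ± 0.62 with D.1 inside the normal range.

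T and NK cell markers were positive in 13 of the 13 that passed the filter on low counts, of 20 listed, with a median of 1.15. Of these, 6 were higher with no overlap, where 8.91% of all genes were. The median was 0.58 for D.1 minus N.3 and 1.27 in the low-share libraries. D.1 lay with D.4 and D.7 here, and the list means were 1.80, 1.71 and 1.90 log2 CPM in D.1, D.4 and D.7, against 0.65, 0.47 and 1.25 log2 CPM in N.1, N.2 and N.3. A gene this low in normal can pass the filter through arm D alone, so the common sign is partly set by the filter. Among members below the filter, Cd3d, Cd8b and Klrb1 had more counts in arm D, and Gzmb and Cd28 had fewer. The same limit holds for the B cell, neutrophil and erythroid markers that follow. Prf1, perforin, was at 11.3, 28.5 and 13.7 CPM in arm D, against 4.08, 6.56 and 7.75 CPM in normal (1.54 ± 0.40). Nkg7, a granule protein of cytotoxic cells, was at 6.87, 6.19 and 6.12 CPM, against 1.34, 1.20 and 4.06 CPM (1.55 ± 0.47). Gzmk, a granzyme, had 1.12 ± 0.38 and Klrd1, an NK receptor, 1.22 ± 0.47, and only Klrd1 of these 4 overlapped. Of 11 B and plasma cell markers 7 were tested, 5 positive and 2 negative, with a median of 1.05. Jchain, the joining chain of secreted antibodies, was at 27.5, 29.8 and 28.3 CPM, against 12.4, 3.43 and 3.39 CPM (2.15 ± 0.49), and Fcrla, a B cell protein, had 1.63 ± 0.50. Sdc1, syndecan 1, a plasma cell marker that hepatocytes also express, was lower with no overlap, at 80.1, 97.3 and 96.6 CPM, against 138, 136 and 122 CPM (−0.53 ± 0.16). Neutrophil markers rested on 4 tested genes of 10, and the granule genes Mpo, Elane and Camp had at most 1 count in a library. Sinusoidal endothelial markers were positive in 14 of 15, with a median of 0.28, for example Cdh5, an adhesion protein, at 0.64 ± 0.20. Blood erythroid markers were positive in 5 of 5 tested, with a median of 1.08, which was 0.39 without D.1 and 0.70 without N.2, and Hbb, a beta globin, was at 346, 245 and 128 CPM in arm D, against 142, 55.2 and 115 CPM in normal, overlapping. The part of blood left in the tissue in the immune values was not tested.

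**Figure D3:**
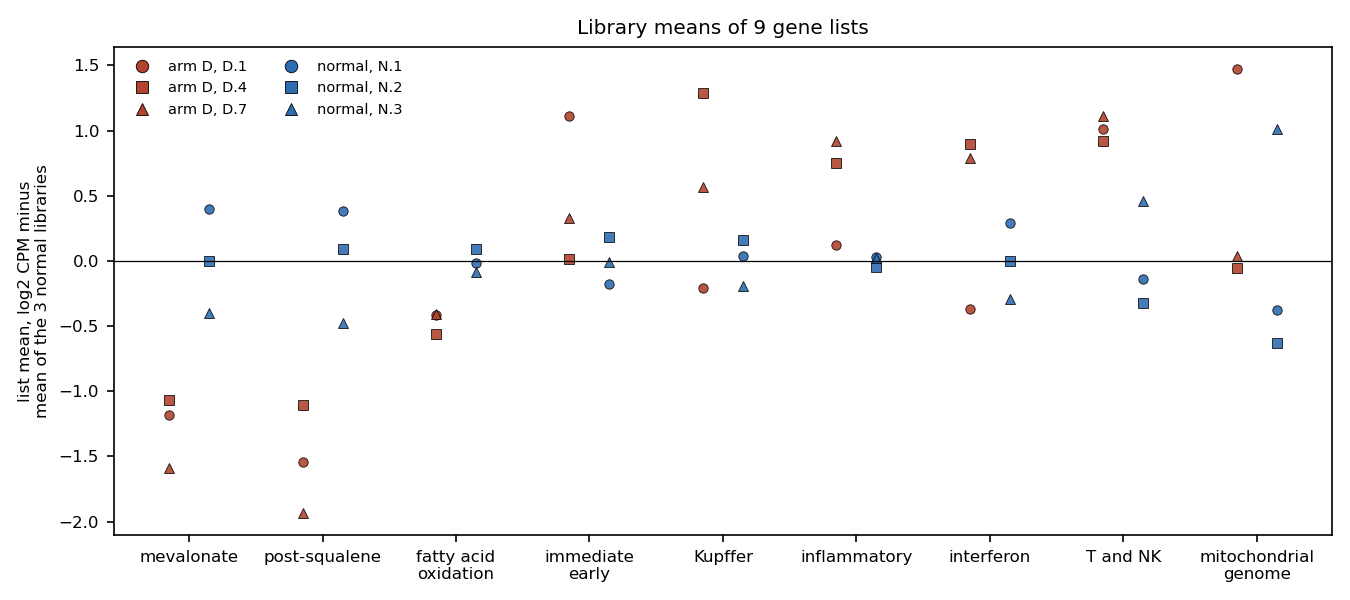
Mean log2 CPM of the tested members of 9 gene lists in each library, minus the mean of the 3 normal libraries, with arm D in red and normal in blue. The cholesterol and fatty acid oxidation lists lie below all normal libraries in each of D.1, D.4 and D.7, while D.1 lies within or below normal in the Kupffer and interferon lists and above all others in the immediate early and mitochondrial lists.

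Hepatocyte identity genes were slightly lower, with 16 of 17 negative in log2 fold change and a median of −0.24. Of the 17, 5 lay below with no overlap, where 7.57% of all genes did. Among these 5 was the transcription factor gene Foxa2, at 18.2, 16.6 and 19.7 CPM in arm D, against 19.98, 25.5 and 32.4 CPM in normal (−0.51 ± 0.21), with D.7 and N.1 nearly level. Alb, the gene of albumin, had at least 93006 CPM in every library, and was chosen after its values were seen to check the labelled tissue. Acute phase proteins had a median of −0.14 over 17 genes, which was 0.033 without D.1, and stood on both sides. Lcn2, lipocalin 2, which binds bacterial siderophores, was at 12.9, 9.08 and 19.6 CPM, against 2.81, 2.47 and 4.66 CPM (2.07 ± 0.37, edgeR's quasi-likelihood test, adjusted p = 0.151). Lbp, which binds lipopolysaccharide, was higher in D.4 and D.7 (0.76 ± 0.28), and Saa4, a constitutive serum amyloid, was lower (−0.48 ± 0.20). Complement and coagulation genes were negative in 22 of 26, with a median of −0.16, which was −0.10 without D.1 and −0.30 without D.4, and 0 had an unadjusted p under 0.05.

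Matrix genes showed no common direction, with 11 of 28 positive and a median of −0.15, which was 0.084 without N.3. Tgfb1, the cytokine that drives fibrosis, was at 19.8, 36.0 and 28.3 CPM in arm D, against 12.6, 10.8 and 14.4 CPM in normal, with no overlap (1.16 ± 0.25). Mmp9, a matrix-degrading protease, was at 0.779, 5.89 and 1.24 CPM, against 0.255, 0.301 and 0.527 CPM (2.87 ± 0.85), on few counts. Col1a1, a chain of collagen type I, was at 12.04, 5.19 and 10.8 CPM, against 12.4, 12.2 and 36.6 CPM (−1.12 ± 0.50). D.1 was nearly level with N.1 and N.2, and N.3 stood far above the other libraries. Over the alternative settings the log2 fold change of Col1a1 ran from −1.39 to −0.40. Cell cycle genes were positive in 18 of 20 tested, with a median of 0.48, which was 0.16 for D.1 minus N.3 and 0.64 in the low-share libraries. Members low in normal can pass the filter on low counts through arm D alone. Below the filter Ccne1 had fewer counts in arm D, and Ccna2, Ccnb1, Cdk1, Bub1b, Aurkb and Rrm2 had more. Mki67, the proliferation antigen Ki-67, was at 1.35, 5.25 and 4.32 CPM, against 1.34, 0.662 and 1.505 CPM (1.65 ± 0.56), with D.1 at the level of normal.

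Antioxidant and conjugation genes had medians above 0, and cytochrome P450 genes a median below it. NRF2 targets and antioxidant enzymes were positive in 17 of 21, with a median of 0.26, and 6 were higher with no overlap, where 8.91% of all genes were. Hmox1, heme oxygenase 1, was at 40.4, 62.8 and 53.7 CPM in arm D, against 32.3, 28.7 and 24.3 CPM in normal (0.88 ± 0.21). Nfe2l2, the gene of NRF2 itself, was at 119, 102 and 139 CPM, against 76.9, 57.9 and 78.6 CPM (0.75 ± 0.20), and Txn1, a thioredoxin, had 0.84 ± 0.26. Conjugation enzymes were positive in 16 of 21, with a median of 0.40, which was 0.15 without D.1, led by Gsta3, a glutathione transferase (1.82 ± 0.41). Cytochrome P450 genes were positive in 7 and negative in 15 of 22, with a median of −0.10, which was −0.31 without D.1 and −0.029 without D.7. Of the 22, 3 lay above and 3 below with no overlap, where 8.91% and 7.57% of all genes did. Among the P450 genes Cyp2d4 was at −0.69 ± 0.16 and Cyp3a23/3a1, a steroid and drug hydroxylase, was at 2409.6, 1719.7 and 2043 CPM, against 942, 1034 and 1350.5 CPM (0.89 ± 0.23). P450 and glutathione transferase genes have close copies, so their values carry the uncertainty named for the Cyp2c genes. Endoplasmic reticulum stress genes were negative in 18 of 22, with a median of −0.26, which was −0.16 without D.1, and Xbp1, a factor of the unfolded protein response, had −0.66 ± 0.25. Periportal and pericentral hepatocyte genes had medians of −0.09 and 0.10, which without D.1 were 0.0080 and −0.042. Pericentral genes differed between the pairs, at 0.57 for D.1 minus N.3 and −0.07 in the low-share libraries, and Tbx3, a pericentral transcription factor, was at 9.28, 11.4 and 10.8 CPM in arm D, against 5.55, 4.27 and 2.48 CPM in normal (1.35 ± 0.31).

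The medians of the mitochondrial and ribosomal lists depended on D.1 and N.3, and their groups overlapped in nearly all genes. Genes of the mitochondrial genome were positive in 11 of 12, with a median of 0.52, nuclear-coded oxidative phosphorylation genes in 23 of 31, with a median of 0.21, and cytosolic ribosomal protein genes in 23 of 28, with a median of 0.32. Without D.1 these medians were −0.34, −0.069 and 0.049, and without N.3 they were 1.32, 0.36 and 0.58, so the sign of the first 2 rested on D.1. With the mitochondrial share as a covariate they were 0.0048, −0.0016 and 0.087. In all 3 lists 0 genes passed in edgeR or DESeq2 and 0 had an unadjusted p under 0.05. Without overlap, 1 nuclear-coded and 1 ribosomal gene lay above, where 8.91% of all genes did. Amino acid breakdown had a median of −0.04 over 22 genes, in which Kynu, of tryptophan breakdown, was at 153, 173 and 172 CPM in arm D, against 345, 228 and 289.9 CPM in normal (−0.79 ± 0.20). Heat shock genes had a median of 0.22 over 10 genes, which was −0.010 without D.7, and cholangiocyte markers had 0.10 over 6, which was −0.064 without D.1. Among markers of neighbouring tissue with too few counts to be tested, Plin1, an adipocyte droplet protein, had 1 count in N.1 and 0 in the other libraries, and the pancreatic genes Cpa1 and Ctrb1 had 0 counts in all of arm D and at most 3 in a normal library. Of the adipocyte, pancreatic, and gut and muscle markers, 3, 2 and 2 passed the filter on low counts, and 0 of these passed the test.

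**Figure D4:**
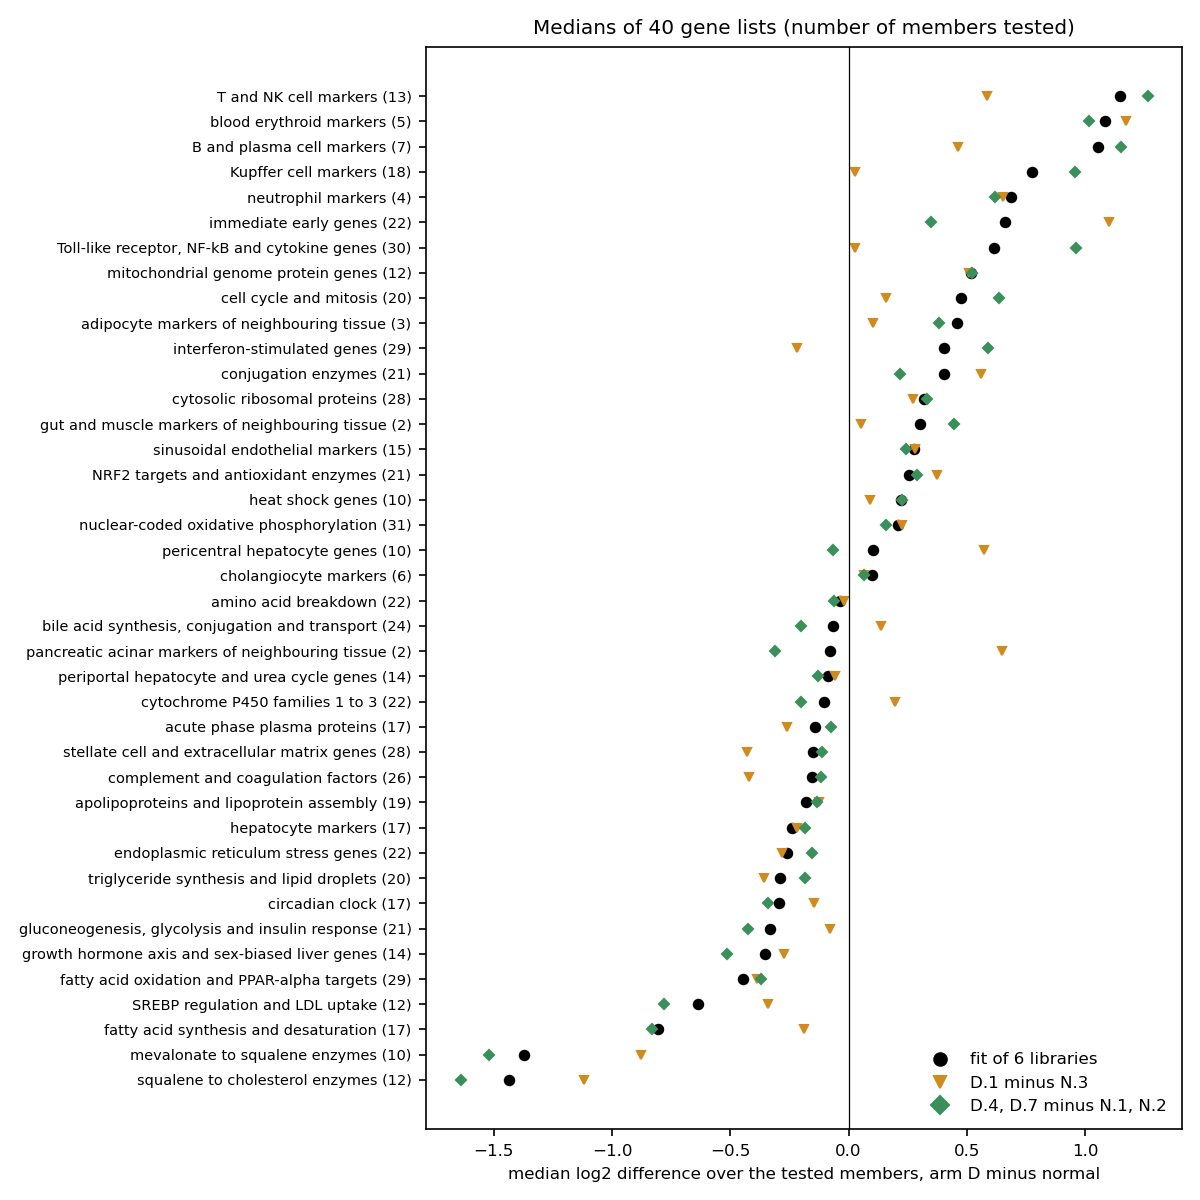
Median log2 difference of arm D minus normal over the tested members of 40 gene lists, ordered by the median of the fit on 6 libraries (black), with the median for D.1 minus N.3 (orange) and for D.4 and D.7 minus N.1 and N.2 (green). Both cholesterol lists lie lowest at −1.37 and −1.44 and keep their side in both pairs, while the interferon list turns from 0.59 in the green to −0.22 in the orange points.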

How the data were processed

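Liver RNA of 6 libraries, 3 of arm D and 3 of the normal group, enter the comparison. Counts per gene are the authors' deposited raw read counts, whole numbers per the file headers. Per the labels' protocols, RNA came from Trizol extraction and libraries from an NEBNext kit. DESeq2 and a mouse build, mm9, appear in the submitters' processing notes, while 14408 of 16558 gene names equal a rat symbol, so no coordinates come from the files. For aligner, counter, annotation and strand, the sources used here give nothing. Some genes that every cell uses, such as Gpx4, have 0 counts in all 6 libraries, so a low count may come from counting. Columns were matched to groups by their letter, and 36 per-sample columns of other values were not used. Replicates differed beyond counting noise, at a chi-square per degree of freedom of 22.4 to 144.

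The test was edgeR's (4.0.16, R 4.3.3) quasi-likelihood test by glmQLFit and glmQLFTest, two-sided, on the 6 libraries, with TMM factors from all 12, filterByExpr, 4 residual and 3.86 prior degrees of freedom, and Benjamini-Hochberg adjustment over 11908 genes at 0.05. CPM uses the TMM-scaled totals, and log2 CPM a prior count of 2. It was checked on simulated counts. Alternatives were DESeq2 1.42.0, limma 3.58.1 and other filters, scalings and libraries. The members and the 40 gene lists, with 732 of 778 symbols found, were chosen with earlier results of these data known, and lists are described by counts and medians with no test. Where fewer than 5 genes pass in a direction, the 8 of smallest p are named, with up to 4 members of smallest p from each list and 20 key genes of fatty liver; a few others are marked as chosen after their values were seen. Promoter sequences are RefSeq's, of GRCr8. Single values of some list members are not reported here, though counts and medians of lists include them.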

Additional observations from a re-analysis of the deposited data

How the results depend on the processing

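Apof and Lrtm2 both passed in DESeq2, in limma-voom with and without quality weights, with DESeq2 size factors, with TMM from the 6 libraries, without mitochondrial genes, without the filter, with the mitochondrial share as a covariate and without D.1 and N.3. With all 12 libraries in 1 fit 0 genes were higher and 0 lower, with 243 lower at an unadjusted p under 0.05. The genes higher and lower at an adjusted p under 0.05 numbered 216 and 131 in DESeq2, 288 and 150 in limma-voom with quality weights, 86 and 38 with the covariate, 16 and 8 without the filter, and 522 and 385 without D.1 and N.3. Of those 907 genes, 888 were also tested in 6 libraries and all 888 had the same sign there. The libraries that called them are part of those 6, so this sign was largely fixed by the choice of genes. In D.1 minus N.3, the libraries left out of that choice, 695 of the 907 had the same sign. Without 1 library in turn, 0 to 47 genes were higher and 1 to 7 lower (7 without D.1, 2 without N.3). At an unadjusted p under 0.05, 1519 were higher and 1275 lower with quality weights and 1576 and 1515 without D.1 and N.3, and without 1 library in turn 512 to 1232 were higher and 323 to 1324 lower (360 without N.1). The mitochondrial share differed by −0.790 to 4.94 percentage points without 1 library in turn. Among the list medians 616 of 639 values moved by less than the spread between libraries. Without D.1 and N.3 the median was 1.05 for inflammatory, −0.20 for bile acid, −0.20 for hepatocyte and −0.093 for pericentral genes. With quality weights it was −0.21 for bile acid, 1.46 for B and plasma cell and −0.16 for hepatocyte genes, and with the covariate 0.026 for bile acid genes. Without 1 library in turn it ran from −1.22 (without D.4) to −0.45 (without D.1) for fatty acid synthesis, −0.23 to −0.014 for lipoprotein, −0.13 to 0.086 for bile acid (0.0073 without D.7, 0.031 without N.2), −0.64 to −0.27 for glucose, 0.49 to 0.93 (without D.1) for inflammatory, 0.57 to 1.03 for neutrophil, −0.30 to −0.19 for hepatocyte (−0.28 without N.3), −0.26 to 0.033 (without D.1) for acute phase, −0.20 to 0.065 for amino acid and −0.31 to −0.029 for P450 genes. The causes were not tested. The log2 fold changes of the 161 genes checked kept their sign in each of these settings. These genes were chosen largely for a small p in the main fit, which shares libraries with every setting, so a kept sign was likely from the choice. No paired analysis was possible because the columns carry no replicate numbers that the labels match, and arms D and N share the number 1 alone. Counts of Prlr, Mmp9, Ccl2 and AABR07051652.1 are low, so their sizes are the least precise.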

Other observations

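Genes of major histocompatibility complex class II, which present peptides to helper T cells, were higher in arm D. These genes were chosen after their values were seen and are given as a description. RT1-Ba, an alpha chain, was at 146, 249 and 161 CPM in D.1, D.4 and D.7, against 44.9, 47.9 and 69.0 CPM in N.1, N.2 and N.3, a log2 fold change of 1.78 ± 0.27 (edgeR's quasi-likelihood test, adjusted p = 0.0943). RT1-Bb, its partner chain, was at 102, 223 and 111 CPM, against 24.3, 35.1 and 32.6 CPM (2.24 ± 0.33). RT1-Db1, a beta chain of the other class II molecule, was at 123, 245 and 175 CPM, against 23.4, 44.1 and 48.7 CPM (2.23 ± 0.35). In all 3 genes every arm D library lay above every normal one, and D.4 was highest. RT1-Da had 1.72 ± 0.35 and Cd74, the invariant chain that escorts class II molecules, was at 403, 929.6 and 846 CPM, against 206, 162 and 339 CPM (1.62 ± 0.39). Ciita, the transactivator that switches these genes on, was at 5.67, 20.2 and 18.0 CPM, against 4.79, 4.51 and 4.66 CPM (1.65 ± 0.44). D.1 lay near normal in Ciita and Cd74, where D.1 minus N.3 was 0.27 and 0.25 and the low-share libraries gave 2.005 and 2.28. RT1 genes have close copies, so reads may be divided between them.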
